A study of Microtus ochrogaster with 34 samples.

Results

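Among the testes of summer (S) males of the fossorial water vole, Arvicola terrestris scherman (ATS), 28 genes varied widely in measured level between males. Their S mean lay within 2-fold of both winter means, as the rule required. For 20 of the 28 (71.4%), the spread was at least 2 times what read counting alone gives. This share was close to the 65.1% among all genes that met every criterion but the spread. For 14 of the 28 (50.0%), the spread was at least 5 times the counting spread, against 7.93% of those genes. All 28 were chosen by a rule on the deposited RPKM. This is a level in reads for each kilobase of a gene's exons, scaled to the size of the library. The mean over S males was at least 5 RPKM, and the coefficient of variation (CV, the SD divided by the mean) over the 18 S males was at least 0.6. The S mean also lay within 2-fold of the means of both winter groups, and the 37 lowest identifiers of the annotation were left out. Of 23038 genes in the table, 10529 had an S mean of at least 5 RPKM and 5005 met every criterion but the spread, so that the 28 members were 0.559% of the genes they were drawn from. The spread among S males and the group means chose the members, and both are given here as a description without a test.

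The study compared testes of 18 S males with those of 5 winter males that maintained spermatogenesis (W+) and 11 winter males that did not (W-), with 1 poly(A) RNA library per animal. All were wild-caught males of reproductive age from several pastures, recorded as wild type with no treatment, and W- pools males of more than one testicular phenotype. The labels give no capture site, day, weight or sequencing batch for single animals, so that these cannot be told apart from differences between males.

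In a seasonal breeder, the summer testis makes sperm continuously, and its RNA comes mostly from germ cells at successive stages together with Sertoli cells, which nurse them, and Leydig cells, which make testosterone. Most testis genes are therefore at similar levels in all males in full breeding condition. The measured level of a gene also varies between libraries by the chance of read sampling, the more so the fewer reads fall on it. In bulk tissue, fewer cells of a type and less RNA per cell cannot be told apart.

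The files name genes only by Ensembl identifiers of the prairie vole, Microtus ochrogaster, and no source used here pairs them with symbols. The members are therefore described by identifier, exon length and values, their functions are not given, and neither the tissue nor any cell type was checked against marker genes.

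The RPKM rise in steps of 1 read, and the reads behind each value came back as whole numbers within 0.02 of a read for all 20821 genes above 0. Counted reads ranged from 5534633 to 63857259 per S library, from 4960104 to 8576453 per W+ library and from 2938627 to 9653984 per W- library. S replicates 12 to 15 were the 4 deepest. S replicate 10 had the fewest reads of the S group and stood apart from it: its correlation with the median S profile over genes that are not members was 0.945, against 0.980 to 0.992 for the other S libraries. It held the highest S value for 23.0% of the 5005 genes, against 1.56% to 8.55% for each other S library. In all 3 groups, no pair of libraries agreed within sampling noise, the closest being S replicates 2 and 8 with a mean chi-square of 2.08 per gene, where counting alone gives about 1.

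Read counting sets a floor to the spread that can be seen, and the members were set against it. The counting CV of a gene is the CV that its recovered reads would give if all males had the same level. Over S males the members had CVs of 0.601 to 1.29 (median 0.713), and the 5005 genes had a median of 0.143. The counting CV of the members was 0.0551 to 0.557 (median 0.154), and that of the 5005 genes had a median of 0.0590. The ratio of measured to counting CV was 1.20 to 10.9 for the members, with a median of 4.94, beside 2.41 over the 5005 genes. This ratio was at least 5 for 14 members (50.0%, against 7.93% of the 5005 genes) and at least 2 for 20 members (71.4%, against 65.1%). With the counting part of the variance taken off, 20 of the 28 kept a CV of at least 0.6. The CV limit cut through a continuous range: the 3 members nearest to it were ENSMOCG00000000847 (0.601), ENSMOCG00000008705 (0.607) and ENSMOCG00000015250 (0.618), and the 3 genes just below it were ENSMOCG00000002949 (0.590), ENSMOCG00000010789 (0.590) and ENSMOCG00000019614 (0.586).

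**Figure D1:**
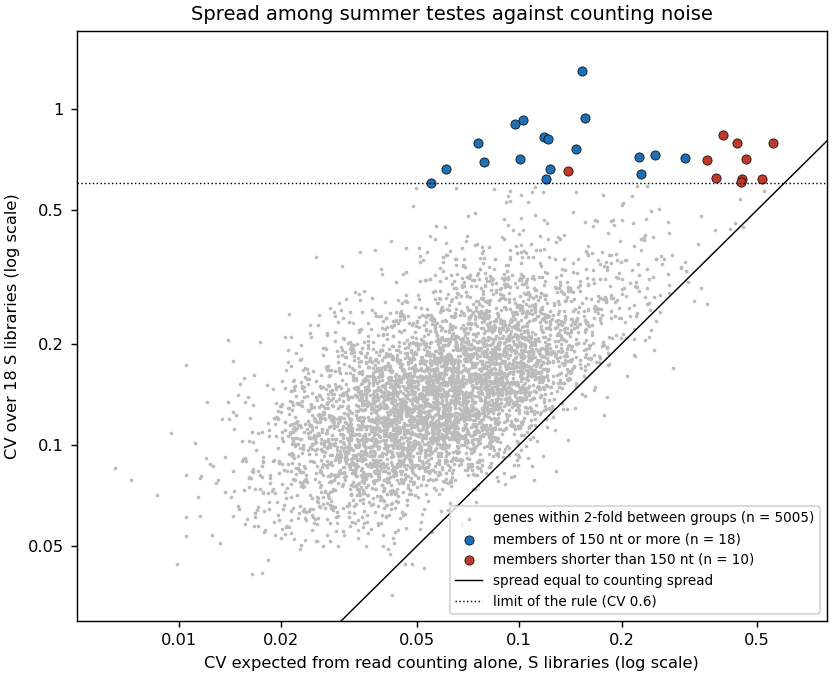
Each point is a gene, with the CV that read counting alone gives over the S libraries on the x axis and the measured CV over 18 S libraries on the y axis, both on log scales; grey points are the 5005 genes that meet every criterion but the spread, coloured points the 28 members. The 18 longer members sit well above the line of equal spread, whereas most of the 10 short members lie close to it.

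The members were of widely different exon lengths, and they are described here on either side of 150 nt. The 18 longer members had exon lengths of 243 to 4353 nt and medians of 10 to 336 reads per S library. Their ratio of spread to counting spread was 2.33 to 10.9 (median 6.84), and 16 of the 18 kept a CV of at least 0.6 without the counting part. The 10 short members had exon lengths of 67 to 141 nt, and apart from ENSMOCG00000011082 with 55.5 reads they rested on medians of 2.5 to 6.5 reads per S library. Their ratio was 1.20 to 4.71 (median 1.60), so that ENSMOCG00000011082, at 4.71, lay above the 4 longer members with the lowest ratios, at 2.33 to 3.20. Those 4 had exon lengths of 243 to 435 nt, but ENSMOCG00000018309, of 315 nt, had a ratio of 7.05. In all, 4 of the 10 short members kept the CV without the counting part. Genes under 150 nt were 31 of the 5005 (0.619%), and 32.3% of these 31 were members, against 0.362% of the 4974 longer genes. Genes of this size in a vertebrate annotation are commonly small non-coding RNAs, which mostly lack the poly(A) tail that oligo-dT beads bind; the class of these 10 is not given in the sources used here.

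Among the 14 members with at least 5 times the counting spread, 4 are described first by the 2 to 4 S males that were highest. ENSMOCG00000015095 (819 nt) had the largest CV of all members, 1.29, with a lowest value of 2.56, a median of 3.55 and a highest of 35.8 RPKM over S males. S replicates 15, 16 and 5 held 35.8, 23.7 and 19.3 RPKM, and the other 15 males all lay at or below 4.17 RPKM, which left a gap of 4.63-fold with no male in it. The winter males, at 2.03 to 6.10 RPKM in W+ and 2.48 to 6.17 RPKM in W-, overlapped the lower S males and reached up to 6.17 RPKM, below the 19.3 RPKM of the lowest of the 3 high S males.

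ENSMOCG00000016554 (1621 nt) ran from 4.13 over a median of 5.35 to 34.1 RPKM in S males. S replicate 4 with 34.1 and S replicate 18 with 20.2 RPKM were high, and the other 16 males did not exceed 7.98 RPKM. W+ replicate 3 was the 1 high W+ male, at 24.0 RPKM against 5.70 to 9.43 RPKM in the other 4, and W- males lay between 6.35 and 17.0 RPKM. ENSMOCG00000017602 (2048 nt) ran from 2.30 over a median of 4.65 to 25.4 RPKM. Its 4 high males were S replicates 12, 13, 7 and 8, at 25.4, 21.1, 12.3 and 10.4 RPKM, and no other S male exceeded 6.25 RPKM. Of these 4, replicates 12 and 13 are among the deeply sequenced libraries and replicates 7 and 8 are not. The winter males were close to each other, at 3.83 to 6.82 RPKM in W+ and 6.43 to 13.3 RPKM in W-.

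ENSMOCG00000011219 (1666 nt) ran from 2.02 over a median of 4.02 to 19.3 RPKM, and S replicates 14, 17 and 9 were high with 19.3, 16.1 and 12.3 RPKM against at most 6.57 RPKM in the other 15. Among W+ males, replicates 2 and 3 had 11.7 and 11.9 RPKM, just below the lowest of these 3 S males. The other 3 W+ males had 1.81 to 4.31 RPKM, and no W- male exceeded 7.31 RPKM. ENSMOCG00000018075 (4353 nt), the longest member, ran from 1.40 over a median of 3.68 to 15.2 RPKM, without such a gap between males. Its 4 highest S males, replicates 14, 9, 13 and 17, included the 3 that were high for ENSMOCG00000011219.

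**Figure D2:**
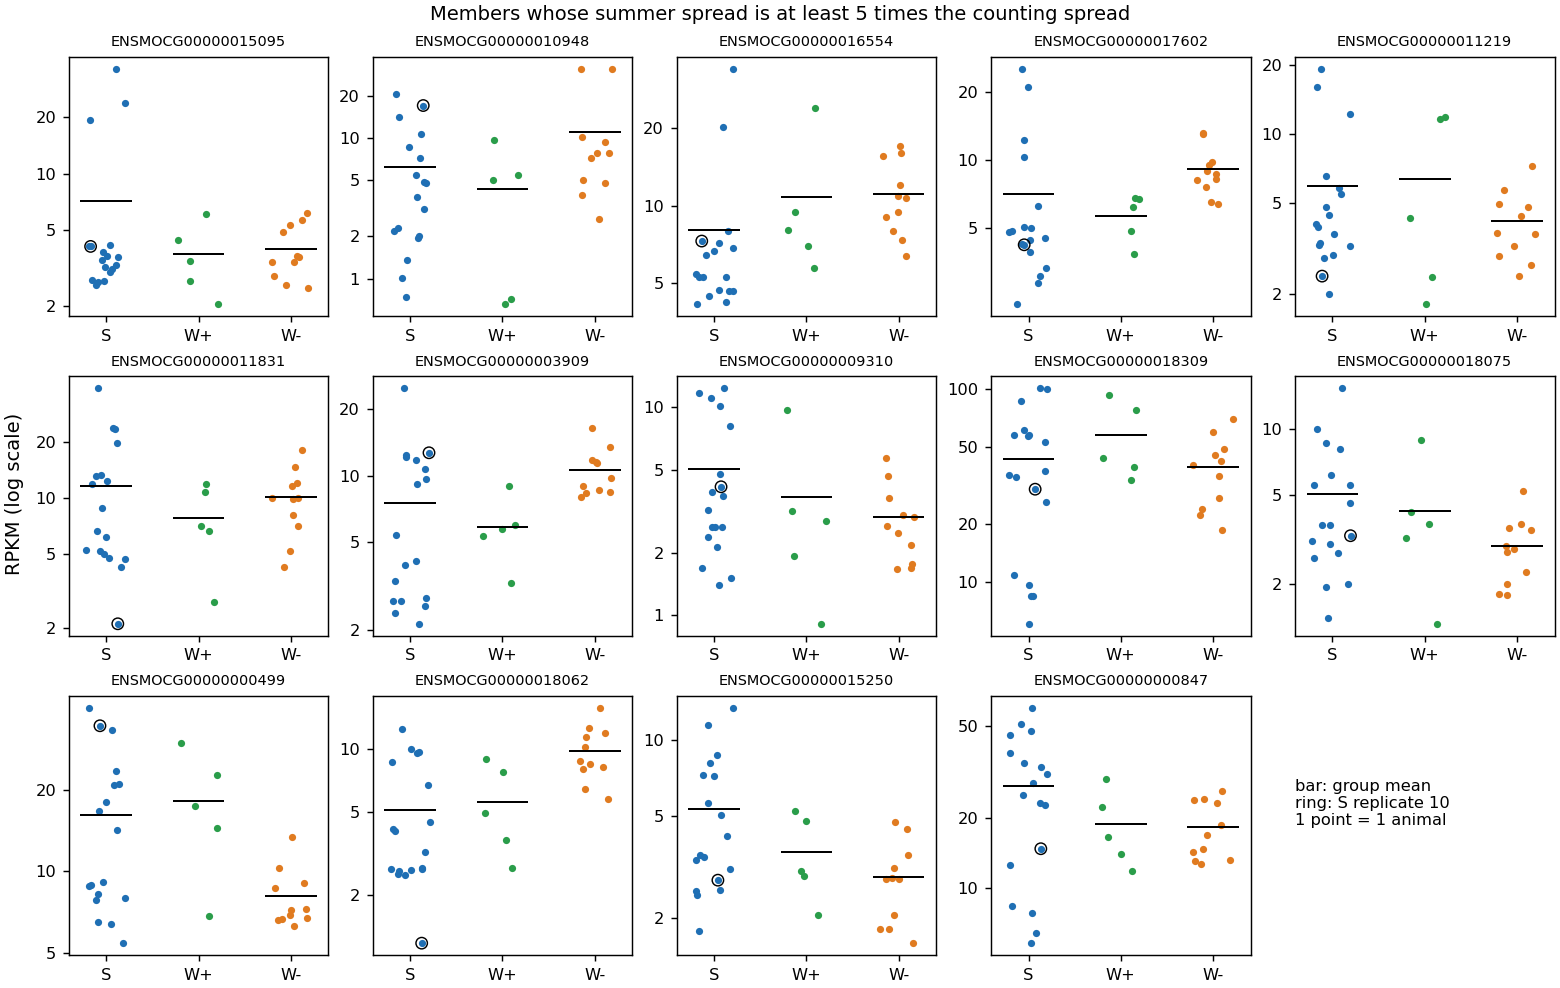
RPKM of the 14 members whose S spread is at least 5 times the counting spread, 1 point per animal (18 S, 5 W+, 11 W-), on log scales that differ between panels; bars are group means and a ring marks S replicate 10. In ENSMOCG00000015095 and ENSMOCG00000016554 a few S males stand far above the rest, and in ENSMOCG00000018309 5 S males lie far below.

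In 3 more of the 14, the S males are described as a lower and an upper set, divided after their values were seen. ENSMOCG00000018309 (315 nt) was the most abundant of the longer members, with 43.4 ± 30.7 RPKM (SD, n = 18), a lowest value of 6.04, a median of 36.6 and a highest of 100.5 RPKM. S replicates 6, 4, 3, 18 and 12 lay at 6.04 to 10.8 RPKM and the other 13 at 25.9 to 100.5 RPKM, a gap of 2.39-fold. No winter male reached down to the lower set: W+ males had 33.5 to 93.2 RPKM and W- males 18.6 to 70.0 RPKM. ENSMOCG00000003909 (3184 nt) ran from 2.14 over a median of 4.77 to 24.9 RPKM. Of the S males, 10 had 2.14 to 5.43 RPKM, 7 had 9.22 to 12.7 RPKM and S replicate 5 had 24.9 RPKM. The W- males covered only the upper part of this range, at 8.02 to 16.4 RPKM, and the W+ males had 3.29 to 8.96 RPKM. ENSMOCG00000009310 (1271 nt) ran from 1.40 over a median of 3.48 to 12.4 RPKM, with S replicates 7, 1, 5, 12 and 3 at 8.10 to 12.4 RPKM and the other 13 at no more than 4.80 RPKM. W+ replicate 3, at 9.69 RPKM, was again alone above the other W+ males, at 0.907 to 3.16 RPKM, and W- males had 1.67 to 5.73 RPKM.

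The other members of the 14 are described by their range, with no division of the males. ENSMOCG00000000847 (1649 nt) had the highest ratio of spread to counting spread, 10.9, and the lowest CV of the members. Its values were 5.75 at the lowest, 26.7 at the median and 59.9 RPKM at the highest in S males, with S replicates 12, 11, 3 and 13 at 5.75 to 8.28 RPKM and S replicates 2 and 16 at 59.9 and 51.1 RPKM. The W+ range of 11.8 to 29.4 RPKM and the W- range of 12.6 to 26.1 RPKM both lay inside the S range. ENSMOCG00000000499 (2280 nt) ran from 5.44 over a median of 11.7 to 40.1 RPKM in S males, with S replicates 13, 10 and 18 at 33.3 RPKM or more. W+ males covered much of that range, at 6.87 to 29.8 RPKM, and W- males only its lower end, at 6.32 to 13.4 RPKM.

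ENSMOCG00000010948 (918 nt) had the widest relative range of the 14, 27.5-fold between 0.742 and 20.4 RPKM in S males (median 4.30 RPKM). S replicates 18, 10, 6 and 12 had 10.6 RPKM or more and S replicates 16 and 3 had 1.02 RPKM or less. Its winter males also spread widely, at 0.657 to 9.71 RPKM in W+ and 2.66 to 31.0 RPKM in W-, where replicates 8 and 11 had 30.8 and 31.0 RPKM and the others at most 10.2 RPKM. ENSMOCG00000011831 (801 nt) ran from 2.11 over a median of 7.68 to 38.6 RPKM, with S replicate 6 highest and S replicate 10 lowest. ENSMOCG00000018062 (1781 nt) ran from 1.18 to 12.4 RPKM (median 3.65 RPKM) and ENSMOCG00000015250 (1800 nt) from 1.78 to 13.3 RPKM (median 3.86 RPKM), and S replicate 3 held the highest value of both.

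The remaining 4 longer members, of 243 to 435 nt, rested on medians of 10 to 16.5 reads. ENSMOCG00000009709 (435 nt) was at 23.3 RPKM in S replicate 10 and at 1.37 to 7.41 RPKM in the other 17 S males, and without S replicate 10 its CV fell from 0.719 to 0.300. ENSMOCG00000002474 (396 nt) was likewise highest in S replicate 10, at 20.2 RPKM against 1.61 to 13.7 RPKM, and its CV without it was 0.454. ENSMOCG00000000255 (243 nt) was highest in the same library, at 15.6 RPKM, and kept a CV of 0.674 without it. ENSMOCG00000004434 (279 nt) ran from 0.917 to 18.9 RPKM with S replicates 4 and 13 highest and S replicates 14 and 15 lowest. Without S replicate 10, the first pair fell below the CV limit of 0.6, and the other pair did not.

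Of the short members, ENSMOCG00000011082 (86 nt) was the one counted well enough to describe male by male. It was the most abundant member of all, with 83.4 ± 54.4 RPKM (SD, n = 18) and values from 10.5 over a median of 74.95 to 202.9 RPKM in S males, on 7 to 162 reads. S replicates 2, 4 and 8 were the highest and S replicates 13, 7 and 12 the lowest. Its CV was 0.652 in S, 1.19 in W+ and 0.810 in W- males. W+ males had 10.4 to 233.7 RPKM, and W- replicates 1 to 5 had 13.4 to 36.9 RPKM while W- replicates 6 to 11 had 63.8 to 189.4 RPKM. W- replicates 1 to 4 had the most counted reads of the W- group, at least 9004888, and W- replicate 5 the fewest, 2938627. The part of depth in this division was not tested. ENSMOCG00000000847 divided the same W- males the other way. It had 18.65 to 26.11 RPKM in W- replicates 1 to 5 and 12.64 to 16.88 RPKM in W- replicates 6 to 11. ENSMOCG00000010857 (84 nt) and ENSMOCG00000009177 (83 nt) were led by S replicate 10, at 42.7 and 35.6 RPKM, and without it their CVs fell from 0.837 to 0.404 and from 0.624 to 0.419. The other 7 short members had ratios of 1.20 to 1.96 to the counting spread, and 5 of these were at 0 in at least 1 S library, and all 7 lay within 2 times the spread that counting alone gives.

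**Figure D3:**
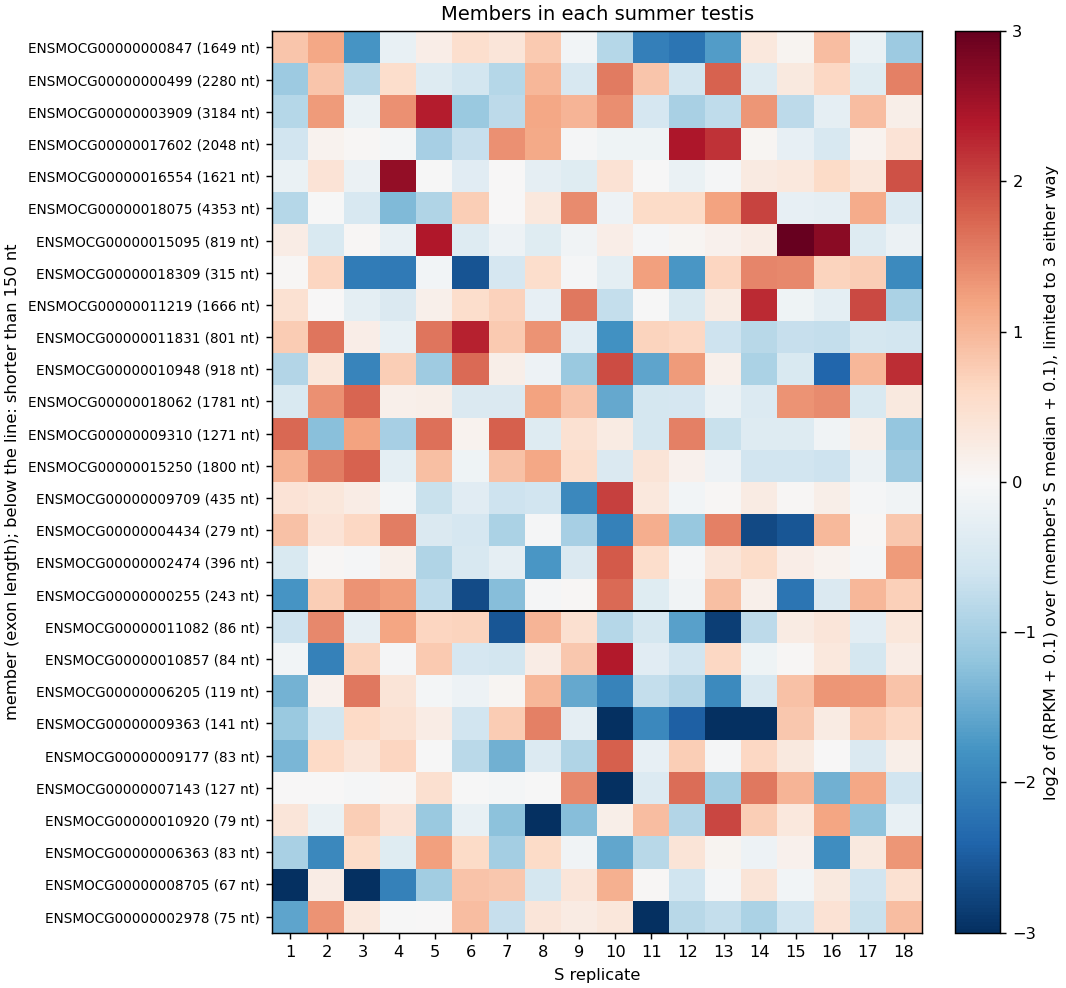
Each row is a member with its exon length, longer members above the black line and short members below it, each ordered by the ratio of S spread to counting spread; each column is an S replicate, and colour gives the log2 of (RPKM + 0.1) over the member's S median + 0.1, limited to 3 either way. High and low males differ from row to row, and S replicate 10 is the highest of its row in 6 members, among them ENSMOCG00000009709, ENSMOCG00000002474 and ENSMOCG00000010857.

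No S male was high across the members. The highest S value fell in 13 different libraries, and S replicate 10 held it for 6 of the 28 (21.4%), close to its 23.0% among the 5005 genes. Without S replicate 10, 22 genes met the rule, 21 of them among the 28; the 7 that left were ENSMOCG00000000847, ENSMOCG00000002474, ENSMOCG00000006363, ENSMOCG00000008705, ENSMOCG00000009177, ENSMOCG00000009709 and ENSMOCG00000010857. Without S replicate 3, 21 genes met it, 20 of them among the 28. Leaving out each member's own highest S male took 11 of the 28 below a CV of 0.6, 6 of the 18 longer and 5 of the 10 short members.

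The members did not vary as one set. Over the 18 S libraries, the 378 pairs of members had a median Pearson correlation of -0.0241 on log2(RPKM + 0.1), with 9 pairs above 0.6 and 4 below -0.6. Clustering gave 5 groups of at most 4 members and left 15 members alone. Of the 9 pairs above 0.6, 3 stayed above it without S replicate 10. The pair ENSMOCG00000011219 and ENSMOCG00000018075 had r = 0.693 and Spearman's rho = 0.579 over the S males, and r = 0.485 without the 2 males farthest from the median of the first gene. In the 11 W- males, which the rule did not use for spread, this pair had r = 0.471 and rho = 0.409. The pair ENSMOCG00000002474 and ENSMOCG00000009709 had r = 0.655 over the S males and 0.437 without S replicate 10, and in the W- males r = 0.907 and rho = 0.782, or r = 0.861 without the 2 farthest males. Of the 9 pairs it was the one that also passed 0.6 in W-. Pairs unlike in S passed it too, such as ENSMOCG00000006363 and ENSMOCG00000008705, at r = -0.0986 in S and 0.954 in W-. The share of all 378 pairs above 0.6 in W- was not computed, so nothing is read from this count. The most alike pair, the short members ENSMOCG00000006205 and ENSMOCG00000009363 with r = 0.796 over S males, had r = -0.105 and rho = 0.0909 in W-, and r = 0.605 there without the 2 farthest males, so that its sign in W- rested on these 2. Libraries in these correlations share their depth and scaling between both genes, and the pairs were picked as the highest of 378, so the values are descriptions.

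**Figure D4:**
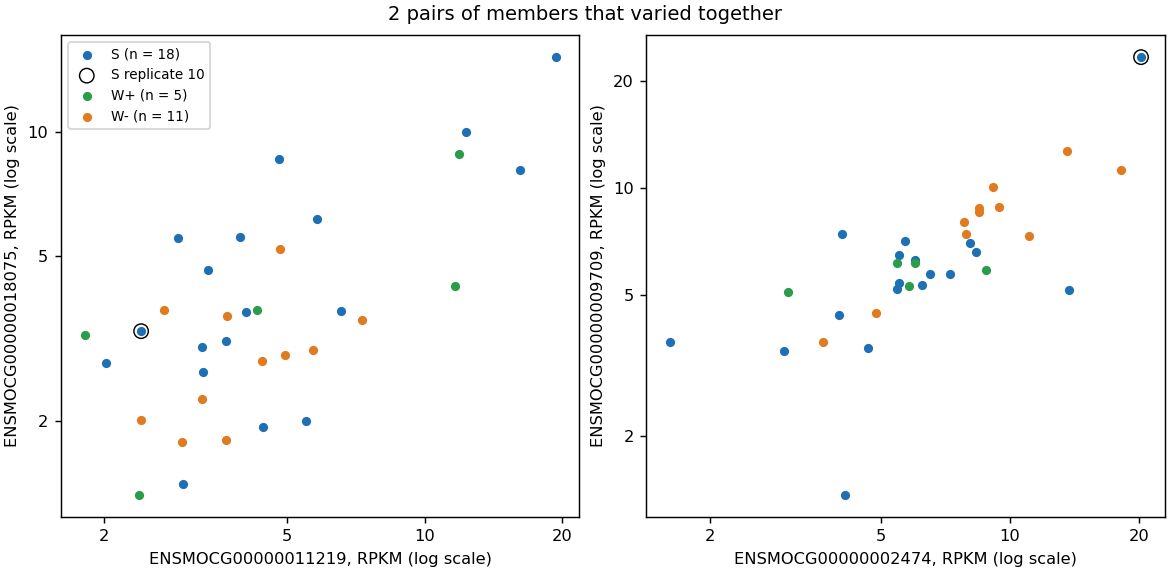
RPKM of ENSMOCG00000018075 against ENSMOCG00000011219 (left) and of ENSMOCG00000009709 against ENSMOCG00000002474 (right), 1 point per animal in 18 S, 5 W+ and 11 W- males, on log scales; a ring marks S replicate 10. In the right panel the W- males that are higher in one gene tend to be higher in the other (r = 0.907 over 11 males). S replicate 10 lies above all others in both genes of that panel.

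The spread of the same genes in winter males was not part of the rule. In the 11 W- males the members had a median CV of 0.431, against 0.224 for the 5005 genes, and 8 of the 28 had a CV of at least 0.6 where 1.50% of the 5005 did. In the 5 W+ males the median CV was 0.529, against 0.158, and 11 of the 28 reached 0.6 where 0.679% did. All 28 members lay above the median CV of the 5005 genes in W-, and 27 did in W+, the exception being ENSMOCG00000009709 with a CV of 0.0849. The short members, with few reads, made up 5 of the 8 in W- and 6 of the 11 in W+. For the 18 longer members with the counting part taken off, the W- CV was 0.237 to 1.20 with a median of 0.331, against 0.213 for the 5005 genes. The median ratio of winter spread to counting spread was lower for the members than for the 5005 genes, at 2.79 against 4.14 in W- and 2.37 against 2.52 in W+. For the 18 longer members it was 3.60 in W- and 3.89 in W+.

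A high CV in S was what the rule chose, so lower CVs in W- can follow from that choice alone, and the values are a description. The CV in W- was below that in S for 24 of the 28 members (85.7%). It was below for 19.6% of the 5005 genes, which were not chosen by their S CV. ENSMOCG00000003909 and ENSMOCG00000017602, with S CVs of 0.790 and 0.903, had W- CVs of 0.247 and 0.249. ENSMOCG00000010948, ENSMOCG00000004434 and ENSMOCG00000000255 were the longer members with a W- CV of at least 0.6, at 0.924, 0.720 and 1.23. In ENSMOCG00000000255 this rested on W- replicate 3 with 30.9 RPKM against at most 10.1 RPKM in the others.

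**Figure D5:**
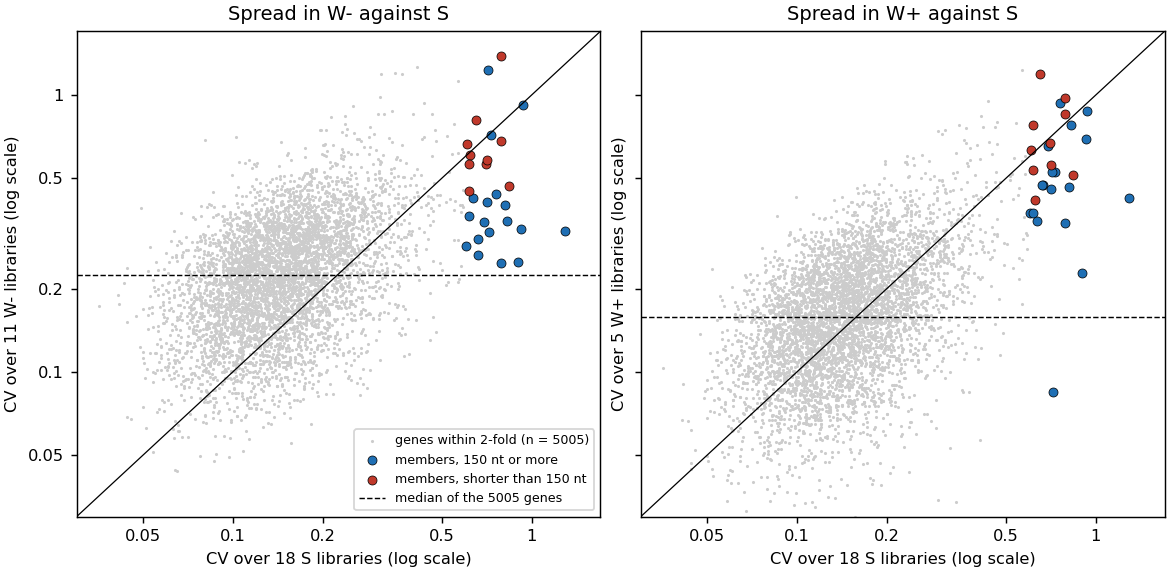
CV over 11 W- libraries (left) and over 5 W+ libraries (right) against the CV over 18 S libraries, both on log scales; grey points are the 5005 genes, coloured points the 28 members, the solid line marks equal CVs and the dashed line the median of the 5005 genes. The members lie above the dashed line, except 1 in W+, and most lie below the solid line.

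The members' group means were part of the rule, and the tests between groups are given only beside their background. With limma on log2(RPKM + 0.1) and all 34 libraries, an adjusted p under 0.05 was reached by 8 of the 28 members for S vs W-, where 80.0% of the 19185 genes tested were called. It was reached by 4 for W+ vs W-, where 63.8% were called, and by 0 for W+ vs S, where 26.3% were called. For W+ vs S, 1 member had an unadjusted p under 0.05 in limma, where 37.6% of all genes did. With voom, 0 members reached an adjusted p under 0.05, and the share of all genes was not computed. Nothing is read from these counts.

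Depth and seasonal state were compared with the members' levels among S males. No gene was called for a slope of log2(RPKM + 0.1) on log2 counted reads in limma over the 18 S libraries (0.00% of 19185 genes, and 0 of the 28 members). At an unadjusted p under 0.05 there were 3 members and 3.39% of all genes. Without the 4 deepest libraries, 5 members and 12.2% of genes were called, and without S replicate 10 as well none was. For the seasonal state, each S male was scored by the difference between the mean log2 levels of 2400 genes whose mean was higher in S than in W- by over 2 on the log2 scale and of 611 genes higher in W- by as much. The members' correlation with this score over 18 males ran from -0.542 to 0.616, and 3 members lay beyond 0.5 either way, against 15.5% of the 5005 genes. ENSMOCG00000011831 (r = 0.616) and ENSMOCG00000015250 (r = 0.548) were higher in S males with a higher score, and ENSMOCG00000010857 (r = -0.542), led by S replicate 10, was lower.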

How the data were processed

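Testis poly(A) RNA of 34 ATS males was sequenced, with 1 library per animal, 18 S, 5 W+ and 11 W- by the sample labels. The authors trimmed single-end reads with Trim Galore 0.6.10, checked them with FastQC 0.12.1, aligned them with HISAT2 to the prairie vole genome MicOch1 (the build field of the labels names mm10), counted them per gene with HTSeq and deposited RPKM computed along with their DESeq2 normalization. The ATS reads were thus placed on the genome of another vole. Strand setting, annotation release and the rule for multi-mapping reads were not given in the sources used here, so overlapping or near-identical genes may share reads.

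From the deposited RPKM, whole reads were recovered (tolerance 0.02; 100% of 20821 genes above 0), with exon lengths. Their steps follow median-of-ratios size factors, so a library with a few very abundant genes is not scaled down by them. Counting spread is the Poisson spread of the recovered reads at the gene's mean, on the RPKM scale, and covers counting error only. Reads have no molecular identifiers, and the counting floor is therefore a lower limit. limma 3.58.1 (R 4.3.3, eBayes with trend, Benjamini-Hochberg over all genes) was run on log2(RPKM + 0.1) for genes with at least 0.1 RPKM in 5 libraries, and fold changes of low genes are understated on this scale. Tested on simulated data with 200 changed genes, it called 198 for S vs W-, 196 for W+ vs W- and 196 for W+ vs S at 4-fold, and 199 for the depth slope, beside 9, 12, 21 and 10 unchanged genes. The changed genes were drawn only from well-counted genes, and all others were left unchanged. The test therefore does not cover members on few reads, nor data in which most genes differ between groups. Python 3.11.15 with numpy 2.4.6, scipy 1.17.1 and matplotlib 3.10.9 did the rest.

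The members and lists were chosen with earlier results of these data known. Named by rule were the 8 members highest in S CV, in S mean and in ratio to counting spread, and those nearest the CV limit; members named beyond these were chosen after their values were seen. Lists of cell type markers and pathways could not be applied without symbols. Same-numbered animals of different groups were not paired: their 21 deviations correlated at -0.160 to 0.138, with 1 above 0.1. Alternatives covered the CV limit, scaling, pseudocount, filter, thinning, voom, a replicate block and libraries left out; those without S replicate 10 together with S replicates 12 to 15, with another SD and for the longer members alone were added after seeing the data.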

Additional observations from a re-analysis of the deposited data

Results flagged for a closer look

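In each of the 28 members, the 5 W+ males were examined for an animal far from the other 4; the other groups have more than 10 animals and were not examined. A gap to the nearest male of more than 0.71 of the whole range singled out 3 values. For normally distributed values, chance does so in about 1 in 20 groups. Whether the RPKM of these members follow such a distribution was not tested, so that rate may not hold here. All 3 were the highest value and fell in W+ replicate 3. ENSMOCG00000016554 was at 24.01 RPKM there (234 reads) against 5.70 to 9.43 RPKM in the other W+ males, a gap of 0.797 of the range. ENSMOCG00000009310 was at 9.685 RPKM (74 reads) against 0.907 to 3.16 RPKM, a gap of 0.744. ENSMOCG00000006205, a short member, was at 36.35 RPKM on 26 reads against 7.93 to 15.2 RPKM, a gap of 0.744.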

How the results depend on the processing

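The number of genes that met the rule followed its limit and the scaling: 51 at a CV of 0.5, 7 at 0.8, 13 with values scaled by total counted reads (8 of them among the 28, although 27 of the 28 kept the spread) and 53 with reads thinned to the 2938627 of the shallowest library (25 among the 28). It was 20 with counting taken off, 26 with the median absolute deviation (14 among the 28), 27 without the 4 deepest S libraries (19 among the 28), 24 without these and S replicate 10 (15 among the 28) and 26 with the SD over n; the last 2 were chosen after seeing the data. Leaving out each library gave 21 to 32 genes. Thinning lowered the median ratio of spread to counting spread to 2.94 (4.60 to 5.11 with each S library left out), and taking counting off lowered the members with a CV of at least 0.6 in W- to 5. With each library of the group left out, that count was 6 to 10 in W- and 8 to 13 in W+.

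For the tests between groups, the share of all genes called under each alternative was not computed, and nothing is read from the counts. Members called in S vs W- numbered 13 with total scaling, and 6 to 10 with each library left out. In the main fit, 1 member was called there when a log2 fold change beyond 1 was also required. Those called in W+ vs W- numbered 8 with total scaling, 2 with no filter, 2 with voom, and 1 to 5 with each library left out, namely 2 without W+ replicate 3 or W- replicate 2 and 1 without W+ replicate 5 or W- replicates 1, 3 or 11. Those called in W+ vs S numbered 1 with total scaling, and 0 with any library left out. With a replicate block the 3 counts were 7, 4 and 1, though replicate numbers did not pair the animals. Members called on depth numbered 5 without the 4 deepest libraries, where 12.2% of all genes were called, and 0 with each S library left out. Except where the limit, the counts or the libraries themselves were changed, the cause was not tested. Over S males, the short members had a median counting CV of 0.443, against 0.121 for the longer members.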
